A study of Homo sapiens with 6 samples.

Results

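A set of 10 genes known from blood cells was followed in HCT116, a human colorectal carcinoma line of epithelial origin, with and without 5aza. The 10 are HCLS1, LCP1, CORO1A, LAPTM5, CD68, CD79B, PTPRC, CD4, CSF1R and LY6D, out of 16715 identifiers in the expression table. They were chosen by name, partly from their values in this same comparison: some because they were switched on in treated cells and others as a reference for silence. Their differences between the groups are therefore given as a description, with no test. All 10 were found in the table by their Ensembl identifiers.

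By its title the series is about DNA methylation and the transcripts that cells make. It holds 3 control and 3 5aza RNA-seq libraries of HCT116 cells at passages 7 to 10. The 5aza cells received 5 µM 5aza for 48 hours and then fresh medium for another 48 hours. The table's columns carry the code DAC for these libraries, and the labels do not spell out the compound. The labels give only "control" for the others and do not say whether they received a vehicle. Nothing says that the 3 libraries of a group came from separate cultures, so the spread between them may be technical, and all of them come from 1 cell line. Summed FPKM (a level scaled for transcript length and for the number of mapped fragments) was 601945 to 628428 in the control libraries and 577766 to 592091 in the 5aza libraries. The sources used here give no read totals, so the depth behind a single value is unknown.

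Once built into DNA, azanucleosides bind the enzymes that copy methylation marks, and the marks thin out over rounds of replication. Blood cells share a set of genes that most epithelia keep silent. Some encode actin regulators that serve migration and phagocytosis, some encode receptors that mark a lineage, and their promoters often hold sites for ETS family factors such as PU.1. DNA methylation of CG pairs near the start of a gene is one of the states that go with such silence.

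Promoter sequence was available for 7 of the 10 members in a RefSeq table of windows around gene starts (GRCh38.p14), with 2 windows for CSF1R. None is shown for CD79B, CD4 and LY6D. The windows below are shown because they contrast 2 genes that came on from near 0 (HCLS1 and LAPTM5), 1 that stayed near 0 (PTPRC) and 1 that was expressed throughout (CORO1A). Each runs 5′ to 3′ on the gene's strand over the 250 bases before its RefSeq start. That start can differ from the annotated gene span given further on. The windows of PTPRC, CORO1A and LCP1 and the second window of CSF1R lie wholly inside those spans. Capitals mark CG pairs and matches to AGGAAGT or its reverse complement ACTTCCT, the core of many ETS family sites. This motif was chosen after the windows had been read. The windows lie at chr3:121660904-121661153 (HCLS1, minus strand), chr1:30757775-30758024 (LAPTM5, minus strand), chr1:198638790-198639039 (PTPRC, plus strand) and chr16:30183352-30183601 (CORO1A, plus strand).
HCLS1: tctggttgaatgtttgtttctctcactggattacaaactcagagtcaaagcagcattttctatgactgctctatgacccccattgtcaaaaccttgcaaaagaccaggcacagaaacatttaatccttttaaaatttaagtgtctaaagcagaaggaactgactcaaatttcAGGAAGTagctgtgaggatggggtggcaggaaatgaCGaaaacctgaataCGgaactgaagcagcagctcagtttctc
LAPTM5: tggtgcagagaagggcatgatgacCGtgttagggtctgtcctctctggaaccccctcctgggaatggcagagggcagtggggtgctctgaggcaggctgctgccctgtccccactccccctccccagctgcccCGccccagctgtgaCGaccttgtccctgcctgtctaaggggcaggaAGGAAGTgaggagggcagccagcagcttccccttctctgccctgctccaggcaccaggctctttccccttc
PTPRC: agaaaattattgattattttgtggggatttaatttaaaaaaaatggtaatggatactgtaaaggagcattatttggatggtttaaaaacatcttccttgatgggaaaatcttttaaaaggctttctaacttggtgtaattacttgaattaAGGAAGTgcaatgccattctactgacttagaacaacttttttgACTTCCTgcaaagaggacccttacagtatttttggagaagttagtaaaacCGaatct
CORO1A: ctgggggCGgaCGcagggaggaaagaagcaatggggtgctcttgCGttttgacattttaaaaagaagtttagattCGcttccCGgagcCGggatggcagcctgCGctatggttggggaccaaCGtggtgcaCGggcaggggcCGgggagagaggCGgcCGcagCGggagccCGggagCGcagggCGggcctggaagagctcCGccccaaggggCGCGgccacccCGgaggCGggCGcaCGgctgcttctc

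The windows held few CG pairs in all of these members but CORO1A. HCLS1 had 2, LAPTM5 had 3, LCP1 had 2, CD68 had 1 and PTPRC had 1, and the 2 windows of CSF1R had 6 and 2. CORO1A had 23. Over 17682 windows of genes in the expression table the median was 18, with quartiles of 7 and 27, and over 2611 windows of genes under 0.1 FPKM in all control libraries it was 6. The ratio of observed to expected CG pairs was 0.189 for HCLS1, 0.115 for LAPTM5, 0.174 for PTPRC and 0.843 for CORO1A. The median ratio was 0.751 for windows of genes in the table and 0.379 for those of genes under 0.1 FPKM in all controls. Over the whole window of 300 bases, HCLS1 had 6, LAPTM5 5, CD68 2, LCP1 2 and PTPRC 1, CSF1R 8 and 4, and CORO1A 26. The 19 windows of the 17 genes with a window that met the switched-on rule given further on had a median of 15. Promoter methylation was not measured here.

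**Figure D1:**
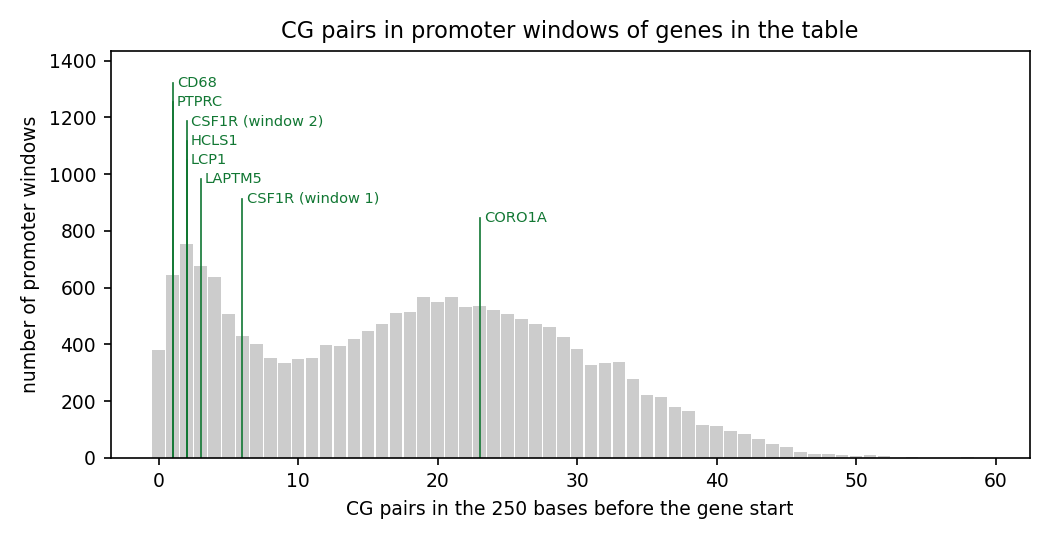
Number of promoter windows (vertical axis) by their count of CG pairs in the 250 bases before the RefSeq start (horizontal axis), for genes in the expression table. Green lines mark the 8 windows of the 7 members with a window: all but CORO1A, at 23, lie at 6 or fewer.

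AGGAAGT was found on either strand in windows of 5 of these 7 members. With the RefSeq start as 0, its first base lay at -78 in HCLS1, -71 in LAPTM5 and -66 in CD68. LCP1 held it at -192 and -46, and PTPRC at -100 and -57. CORO1A and both windows of CSF1R had none. Of 17682 windows of genes in the table, 6.78% held it, and of those of genes under 0.1 FPKM in all controls, 8.35%. The motif was present both in members that came on and in PTPRC. Since it was picked after reading these windows, its share among them is a description only.

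All 10 members were listed higher in each of the 3 5aza libraries than in any control library, but to very different levels. That pattern was seen in 21.3% of all 16715 identifiers, and nothing is read from the members' count because this comparison chose them. HCLS1, LAPTM5 and LY6D went from under 0.1 FPKM to between 1.12 and 3.55 FPKM, and CD79B from under 1 to between 2.51 and 3.33 FPKM. CORO1A and CD68 were above 2.8 FPKM in every library. LCP1, CSF1R, CD4 and PTPRC stayed under 0.6 FPKM with 5aza. Beside these low values, 1663 to 1761 identifiers were listed at 0 in a control library and 755 to 801 in a 5aza library, and the part of this in the members' values was not tested.

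**Figure D2:**
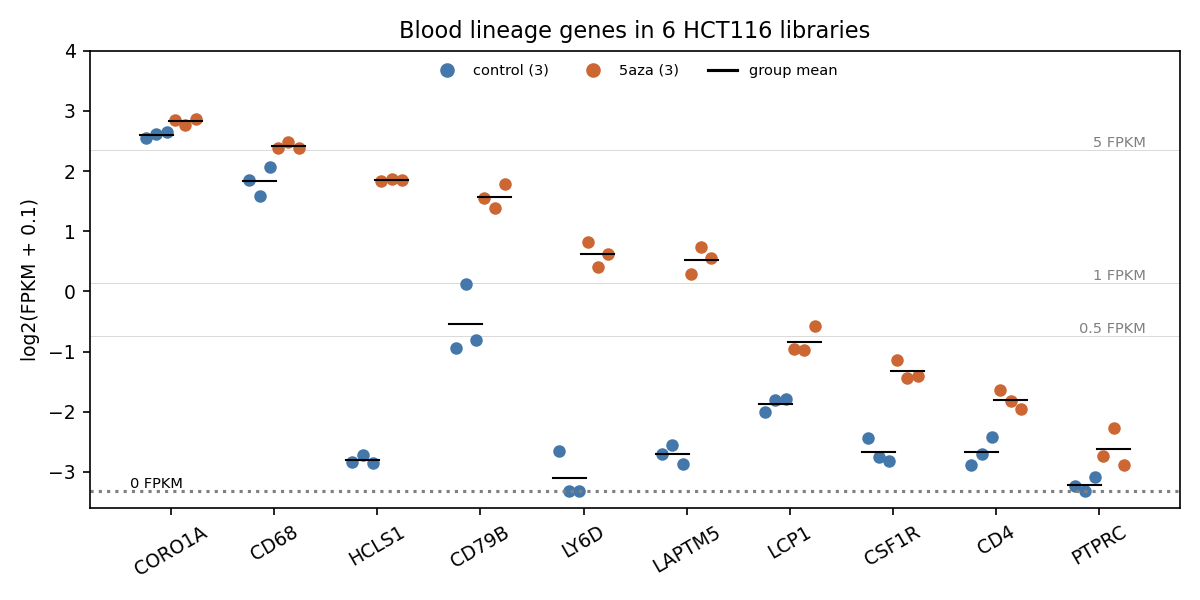
FPKM of the 10 members in each library as log2(FPKM + 0.1), with 1 point per library, control in blue and 5aza in orange, and black bars for the mean of 3. HCLS1 lay at 0.0391 to 0.0519 FPKM in control and 3.47 to 3.55 FPKM in 5aza libraries, while PTPRC stays near the dotted line at 0 FPKM in all 6.

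HCLS1, LCP1 and CORO1A are actin regulators of leukocytes. HCLS1 (ENSG00000180353, chromosome 3, 121631399 to 121660927, GRCh38) encodes a relative of cortactin that is tyrosine-phosphorylated after antigen receptor signalling. It was at 0.0397, 0.0519 and 0.0391 FPKM in control replicates 1 to 3 and at 3.47, 3.55 and 3.53 FPKM in 5aza replicates 1 to 3. The groups lay far apart and the treated libraries close together: the mean went from 0.0436 ± 0.00724 to 3.52 ± 0.0440 FPKM (SD, n = 3). On the scale of log2(FPKM + 0.1), which understates changes of low genes, the difference was 4.66 (SE 0.043). LCP1 (ENSG00000136167, chromosome 13, 46125920 to 46211871) encodes L-plastin, an actin-bundling protein. It was at 0.148, 0.187 and 0.188 FPKM in control libraries and at 0.416, 0.408 and 0.569 FPKM in 5aza libraries. The groups did not overlap, but both stayed low, with a log2 difference of 1.03 (SE 0.15), and 0.54 under quantile normalization.

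CORO1A (ENSG00000102879, chromosome 16, 30182827 to 30189076) encodes coronin 1A, an actin-binding protein of T cells and phagocytes. Its control values were 5.77, 6.02 and 6.20 FPKM and its 5aza values 7.11, 6.67 and 7.18 FPKM. It was thus expressed in the carcinoma cells without treatment, and its log2 difference was 0.22 (SE 0.044). The gene overlaps an annotated antisense gene, AC012645.3, not analysed here, and with no strand setting named in the sources, reads of the pair cannot be told apart.

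LAPTM5 and CD68 are membrane proteins of endosomes and lysosomes. LAPTM5 (ENSG00000162511, chromosome 1, 30732469 to 30757820) takes part in the degradation of antigen receptors. It was at 0.0532, 0.0705 and 0.0367 FPKM in control libraries and at 1.12, 1.57 and 1.36 FPKM in 5aza libraries. Every treated library was above every control by over 1 FPKM, and the log2 difference was 3.24 (SE 0.16). CD68 (ENSG00000129226, chromosome 17, 7579467 to 7582113), used as a macrophage marker, was at 3.50, 2.90 and 4.10 FPKM in control libraries and at 5.10, 5.47 and 5.12 FPKM in 5aza libraries. Like CORO1A it was present without treatment, and its log2 difference was 0.58 (SE 0.14). CD68 starts 462 bases downstream of EIF4A1, a translation factor gene on the same strand, at 786 ± 36.6 FPKM in control and 720 ± 17.2 FPKM in 5aza libraries (SD, n = 3). A transcript locus on that strand, AC016876.2, overlaps both genes and was not analysed here. The sources do not say how reads of such transcripts were assigned, and their part in the CD68 values was not tested.

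Receptors of the lymphoid and myeloid lineages differed in level, and CD79B stood above PTPRC, CD4 and CSF1R in both groups. CD79B (ENSG00000007312, chromosome 17, 63928740 to 63932354) encodes the beta chain that signals for the B cell receptor. It was at 0.421, 0.992 and 0.470 FPKM in control libraries and at 2.84, 2.51 and 3.33 FPKM in 5aza libraries. Control replicate 2 stood above the other two, and the groups did not overlap. The CD79B log2 difference was 2.11 (SE 0.36), and between 1.92 and 2.45 when any 1 library was left out. A protein-coding locus on the same strand, AC127029.3, overlaps CD79B and was not analysed here. CD79A, the partner chain without which CD79B does not reach the surface as a receptor, had means of 0.0879 and 0.0788 FPKM in control and 5aza libraries. CD79A was at 0 in 1 library of each group, and its groups overlapped.

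PTPRC (ENSG00000081237, chromosome 1, 198638457 to 198757476) encodes CD45, the receptor phosphatase carried by all nucleated blood cells. It was at 0.00612, 0 and 0.0178 FPKM in control libraries and at 0.0508, 0.108 and 0.0358 FPKM in 5aza libraries. All values were near 0, and the treated ones were all higher; the log2 difference was 0.59 (SE 0.20) and between 0.14 and 0.61 under the 2 other scalings tried. CD4 (ENSG00000010610, chromosome 12, 6786858 to 6820808), the co-receptor of helper T cells that is also found on monocytes, was at 0.0355, 0.0543 and 0.0858 FPKM in control libraries and at 0.220, 0.184 and 0.157 FPKM in 5aza libraries. Its log2 difference was 0.86 (SE 0.16), and 0.25 under quantile normalization. CSF1R (ENSG00000182578, chromosome 5, 150053291 to 150113372), the receptor that keeps macrophages alive, was at 0.0838, 0.0489 and 0.0413 FPKM in control libraries and at 0.353, 0.267 and 0.279 FPKM in 5aza libraries. The CSF1R log2 difference was 1.34 (SE 0.15), and 0.77 under quantile normalization. None of these 3 reached 0.4 FPKM in any library.

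LY6D (ENSG00000167656, chromosome 8, 142784880 to 142786592) encodes a small surface protein anchored by a lipid, which marks early B lineage cells in the mouse and is also made by stratified epithelia. It was at 0.0598, 0 and 0 FPKM in control libraries and at 1.66, 1.23 and 1.44 FPKM in 5aza libraries. The log2 difference was 3.71 (SE 0.25). An antisense locus, AC083841.2, overlaps it and was not analysed here. Since LY6D is no marker of blood cells alone, keratinocyte markers were read beside it. Of 10 listed, 6 had values and 5 of these were higher in every 5aza library than in any control, a pattern of 21.3% of all identifiers and of 35.3% of those under 0.1 FPKM in all controls, as 3 of the 6 were. KRT10 was lower in every one. Their summed level was 165 to 174 FPKM in control and 195 to 201 FPKM in 5aza libraries, most of it SFN. KRT14 had means of 0.00587 and 0.212 FPKM, KRT5 of 0.156 and 0.364 FPKM and TP63 of 0.0264 and 0.233 FPKM.

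With FPKM, levels can be set side by side per transcript length. In control libraries the mean levels fell from CORO1A to CD68, CD79B and LCP1, with no overlap between neighbours in this order. Below them, CD4, CSF1R, LAPTM5, HCLS1 and LY6D overlapped, all under 0.1 FPKM, and PTPRC was lowest but overlapped LY6D. In 5aza libraries the order was CORO1A, CD68, HCLS1, CD79B, LY6D, LAPTM5, LCP1, CSF1R, CD4 and PTPRC. LY6D and LAPTM5 overlapped there, and no other neighbours did.

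The switched-on rule asked for values below 0.1 FPKM in every control and for no 5aza library below 1 FPKM. Of all identifiers, 29 met it, or 0.173%, which is 1.07% of the 2702 that were below 0.1 FPKM in every control. Of the 29, 3 are members: HCLS1, LAPTM5 and LY6D. Nothing is read from this count, since the members were chosen from these values. Just inside the rule, LAPTM5 had a lowest 5aza value of 1.12 FPKM. Just outside, CSF1R was under 0.1 FPKM in all controls but had a highest 5aza value of 0.353 FPKM, and CD79B was above 2.5 FPKM in all 5aza libraries but above 0.4 FPKM in all controls.

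Differences across all genes were tested with limma on log2(FPKM + 0.1). The test took in the 12360 genes that reached 0.5 FPKM in 3 or more libraries, with a call at a Benjamini-Hochberg adjusted p under 0.05. In all, 1310 genes rose (10.6%) and 1619 fell (13.1%), so that 23.7% were called. With each library scaled to the same summed FPKM, 2249 rose and 779 fell. Leaving out control replicate 1 brought the falls to 1035, leaving out control replicate 2 to 940, and leaving out 5aza replicate 3 to 987. Of the 10 members, 6 passed the filter: HCLS1, CORO1A, LAPTM5, CD68, CD79B and LY6D. Of these 6, 3 were under 0.5 FPKM in all controls and so passed through their 5aza values alone. No call is read from them, since this comparison chose them. LCP1, PTPRC, CD4 and CSF1R were too low to be tested.

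Other genes of blood cells were read beside the members. These were read in 8 lists by role, 241 genes in all without the members. The lists were drawn up from general knowledge of blood cells, but with earlier results of these data known. Of the 188 with values, 77 were tested, 14 rose, 5 fell and 58 did not pass. Falls numbered 2 without control replicate 1 or 5aza replicate 3, and 3 without control replicate 2, 5aza replicate 1 or 5aza replicate 2. Rises made up 18.2% of the list genes tested, beside 10.6% of all genes tested, and 7.45% of those with values, beside 7.84% of all identifiers. Of those with values, 27.7% were higher in every 5aza library than in any control, beside 21.3% of all identifiers. The median log2 difference over the 188 was 0.15, beside 0.03 over all identifiers. A larger share of the 188 was low: 78 were under 0.1 FPKM in all controls, as were 2702 of all 16715 identifiers. The part of this in the medians and shares was not tested. None of the 188 met the switched-on rule. Of 78 of these genes under 0.1 FPKM in all controls, 22 (28.2%) were higher in every 5aza library, beside 35.3% of all identifiers as low in controls. Their highest 5aza mean was 0.686 FPKM, that of TYROBP, an adaptor of myeloid and NK cell receptors, chosen after its values were seen, which was listed at 0 in all 3 controls and at 0.822, 0.962 and 0.274 FPKM with 5aza. All 78 thus stayed under 1 FPKM with 5aza.

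**Figure D3:**
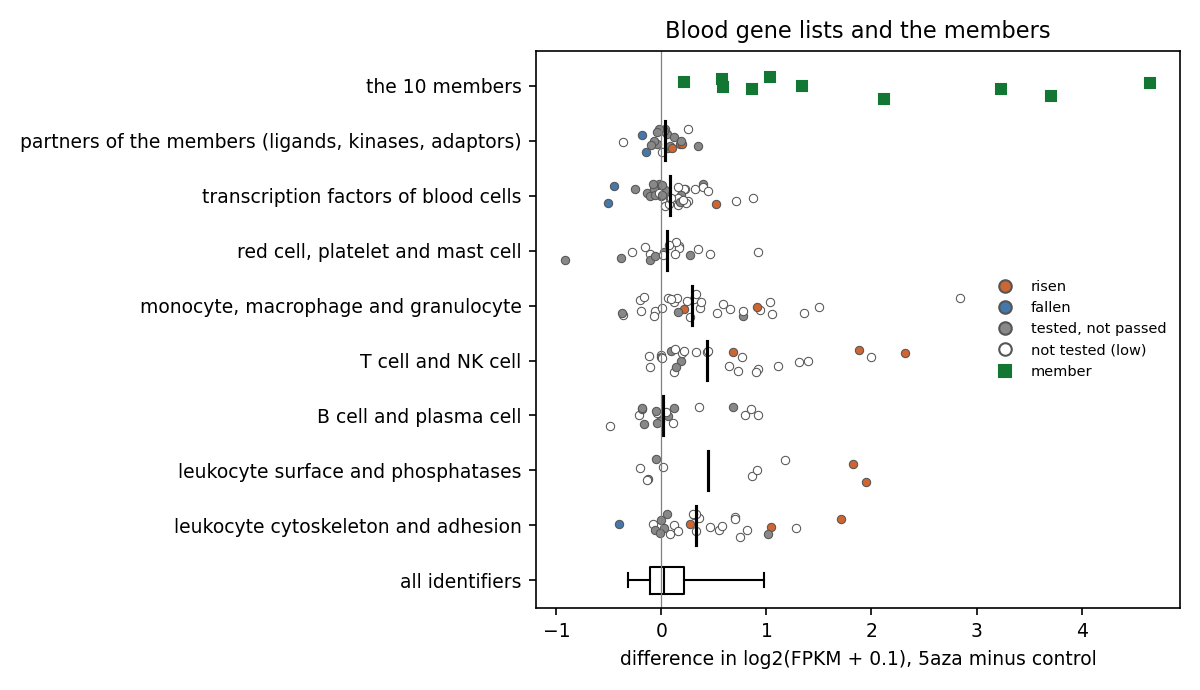
Difference in log2(FPKM + 0.1), 5aza minus control, for each gene of 8 blood gene lists with values, with black bars at list medians. The box gives quartiles of all 16715 identifiers with whiskers at the lowest and highest 5%. Most list genes lie near 0, and the 10 members, as green squares and chosen from this comparison, reach 4.66 (HCLS1).

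Among 27 other genes of the leukocyte cytoskeleton and adhesion, 11 were tested, 3 rose and 1 fell, with a median log2 difference of 0.33 over all 27. FERMT3, the kindlin that activates integrins in blood cells, was at 0.732, 0.367 and 0.510 FPKM in control libraries and rose to 1.62, 1.86 and 2.37 FPKM (log2 difference 1.71, SE 0.28, limma adjusted p = 0.00299). ARHGDIB rose from 0.850 to 1.86 FPKM (limma adjusted p = 0.00361) and RAC2, the Rac GTPase of blood cells, from 41.1 to 49.6 FPKM (limma adjusted p = 0.00320). The integrin chain ITGB2, shared by the leukocyte integrins, had means of 0.00400 and 0.0317 FPKM and was not tested.

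Of 16 genes of the leukocyte surface and its phosphatases, 10 had values, 4 were tested and 2 rose. PTPN7, a tyrosine phosphatase of haematopoietic cells, was at 0.534, 0.356 and 0.480 FPKM in control libraries and rose to 1.78, 1.46 and 2.45 FPKM (log2 difference 1.82, SE 0.25, limma adjusted p = 0.00168). CD52, a small surface glycoprotein of lymphocytes, rose from 0.170 to 0.787 FPKM. It passed the filter through its 5aza values alone, and its call was lost under 7 of 14 alternatives (limma adjusted p from 0.0102 to 0.0920).

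The T cell and NK cell list held the gene with the smallest adjusted p of all 8 lists. PRF1, which encodes the pore-forming protein perforin of cytotoxic lymphocytes, was at 9.48, 11.1 and 10.4 FPKM in control libraries and rose to 36.5, 37.6 and 40.6 FPKM. Its log2 difference was 1.88 (SE 0.080, limma adjusted p = 3.52e-06), and it was well expressed in control cells. LCK, the kinase that starts T cell receptor signalling, was at 0.245, 0.0597 and 0.106 FPKM in control libraries and rose to 1.06, 0.988 and 1.01 FPKM (limma adjusted p = 0.00234). LCK passed the filter through its 5aza values alone. SH2D2A, a T cell adaptor, rose from 0.958 to 1.59 FPKM. Without 5aza replicate 3 the SH2D2A call was lost (limma adjusted p = 0.0544, and from 0.0120 to 0.0544 over 15 alternatives). The 3 rises were among 7 genes tested and 27 with values. CD3D, CD3E, CD3G and CD247, the chains of the T cell receptor's signalling complex, were all too low to be tested.

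Of 18 B cell genes other than CD79B with values, 9 were tested by limma, and 0 passed with adjustment, as did 0 at an unadjusted p under 0.05. With no filter, BLK and CD38 were called as risen (limma adjusted p = 0.0101 and 0.0111). The list's median log2 difference was 0.02. CD22, an inhibitory receptor of B cells, had means of 1.49 and 1.54 FPKM. Of 32 monocyte, macrophage and granulocyte genes with values, 5 were tested and 2 rose. CYBA, a subunit of the phagocyte oxidase that many other cells make too, rose from 365 to 423 FPKM (limma adjusted p = 0.00983), and CD33, an inhibitory lectin of myeloid cells, from 0.968 to 1.87 FPKM, a call lost under 8 of 15 alternatives (limma adjusted p from 0.0155 to 0.109). Of 18 genes of red cells, platelets and mast cells with values, 6 were tested by limma and 0 passed with adjustment, while 2 had an unadjusted p under 0.05, ITGA2B and HBG2. ITGA2B, the platelet integrin chain, had means of 1.96 and 0.934 FPKM and was called as fallen without control replicate 2 (limma adjusted p = 0.00584), and so it was after quantile normalization (limma adjusted p = 0.0267). GYPC, a glycophorin of red cells, was called as risen when every gene was tested (limma adjusted p = 0.0420).

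Of 36 transcription factors of blood cells with values, 18 were tested, 1 rose and 2 fell. ETS1, an ETS family factor of lymphocytes and other cells, rose from 2.55 to 3.72 FPKM (log2 difference 0.52, SE 0.082, limma adjusted p = 0.00870). MYB, a factor of blood progenitors that is also active in colon crypts, fell from 3.00 to 2.09 FPKM (log2 difference -0.50, SE 0.041, limma adjusted p = 0.00769). MEF2C, a factor of muscle and lymphoid cells, fell from 7.50 to 5.46 FPKM, a call lost under 5 of 15 alternatives (limma adjusted p from 0.0124 to 0.0763). SPI1, which encodes PU.1, was at 0, 0.0316 and 0 FPKM in control libraries and at 0.0608, 0.0288 and 0 FPKM in 5aza libraries, so that the groups overlapped near 0.

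Ligands, adaptors and relatives of the members were mostly well expressed. Of 21 with values, 18 were tested, 3 rose and 2 fell, with a median log2 difference of 0.03. CTTN, the cortactin gene that HCLS1 resembles, rose from 67.8 to 76.7 FPKM (limma adjusted p = 0.00487), so its change was small beside its level. LGALS1, a galectin that binds CD45, rose from 1497 to 1714 FPKM (limma adjusted p = 0.00463), and SHC1, an adaptor of receptor kinases, from 77.7 to 83.6 FPKM. The SHC1 call was lost under 7 of 15 alternatives (limma adjusted p from 0.00483 to 0.108). LAPTM4B, a relative of LAPTM5, fell from 405 to 366 FPKM, a call lost under 4 of 15 alternatives (limma adjusted p from 0.0101 to 0.123). HAX1, which binds the HCLS1 protein, fell from 52.3 to 45.8 FPKM, a call lost under 7 of 15 (limma adjusted p from 0.00929 to 0.0871). CSF1, a ligand of CSF1R, had means of 2.10 and 2.66 FPKM and did not pass, and IL34, its other ligand, means of 0.0928 and 0.0582 FPKM.

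Markers of whole cell types were read beside these values. Of the epithelial genes of the labelled line, 12 had values, and their summed level was 2456 to 2611 FPKM in control and 2962 to 3034 FPKM in 5aza libraries. Of these 12, 9 were tested: 5 rose (KRT8, KRT18, KRT19, KRT20 and CDH1) and 1 fell (EPCAM). Of all genes tested, 10.6% rose and 13.1% fell. KRT8 was between 945 and 1164 FPKM and EPCAM between 151 and 167 FPKM, while VIL1, CDH17 and LGALS4 stayed under 0.5 FPKM. KRT20, a keratin of differentiated gut epithelium, was at 0.878, 0.575 and 0.870 FPKM in control libraries and rose to 3.04, 3.09 and 3.09 FPKM (log2 difference 1.88, SE 0.18, limma adjusted p = 0.000408). Of 20 defining markers of blood cells other than the members, 14 had values, and their summed level was 3.23 to 3.99 FPKM in control and 3.23 to 5.21 FPKM in 5aza libraries. Of these 14, 3 were higher in every 5aza library than in any control (21.4%, beside 21.3% of all identifiers), namely TYROBP, CD3D and MPO. Under 0.1 FPKM in all controls were 9 of the 14, and 35.3% of all identifiers that low showed the pattern. Listed at 0 in all controls were 4 of the 14. CD163, a scavenger receptor of macrophages, was the 1 that was tested, at 3.23, 2.78 and 2.83 FPKM in control libraries and at 1.498, 2.02 and 3.70 FPKM in 5aza libraries. It did not pass, but was called as fallen without 5aza replicate 3 (limma adjusted p = 0.0290). TYROBP, with the values given above, was too low to be tested, but was called as risen with a filter on a mean of at least 0.1 FPKM (limma adjusted p = 0.00333) and with no filter (0.00786). MPO, the peroxidase of granulocytes, was listed at 0 in all controls and at 0.0457, 0.0225 and 0.0698 FPKM with 5aza, and was called as risen with no filter (limma adjusted p = 0.0448). CD3D was listed at 0 in all controls and at 0.0480, 0.122 and 0.459 FPKM with 5aza. CD53, a tetraspanin of all leukocytes, was at 0.0486, 0 and 0 FPKM in control libraries and at 0, 0.0236 and 0.0247 FPKM in 5aza libraries. Of 8 fibroblast and stroma markers with values, 6 were higher in every 5aza library than in any control and 1 was lower. Of 7 endothelium markers with values, 1 was higher. That pattern was seen in 35.3% of all identifiers under 0.1 FPKM in all controls, as 5 of these 8 and 3 of these 7 were. The part of blood cell markers in the members' values was not tested. In bulk RNA, more cells with a transcript and more transcript per cell cannot be told apart.

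The genes next to the members on the chromosome were read from the annotation. The nearest gene with values on each side of each member gave 20 genes, of which 14 were tested: 1 rose, 3 fell and 10 did not pass, where 10.6% of all genes tested rose and 13.1% fell. Of the 20, 2 were higher in every 5aza library than in any control, beside 21.3% of all identifiers. HCLS1 has FBXO40 on its lower-coordinate side, 1104 bases away and listed at 0 in all 6 libraries, and GOLGB1 on the other, 2272 bases away, with means of 5.92 and 7.15 FPKM (limma adjusted p = 0.119). On the sides of LAPTM5, MATN1 had means of 0.0436 and 0.0638 FPKM and SDC3 of 24.6 and 24.2 FPKM. CSF1R lies 465 bases from PDGFRB, a related receptor gene with means of 0.105 and 0.156 FPKM. LYNX1, a gene of the same family as LY6D and 7070 bases from it, rose from 1.62 to 2.68 FPKM (log2 difference 0.69, SE 0.12, limma adjusted p = 0.00772). LY6E, on the other side of LY6D, fell from 273 to 247 FPKM, a call lost under 9 of 15 alternatives (limma adjusted p from 0.0131 to 0.189). MPDU1 beside CD68 and P3H3 beside CD4 fell, from 61.6 to 48.3 and from 19.5 to 16.4 FPKM (limma adjusted p = 0.00301 and 0.0217). The P3H3 call was lost under 4 of 15 alternatives (limma adjusted p from 0.0211 to 0.0850).

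**Figure D4:**
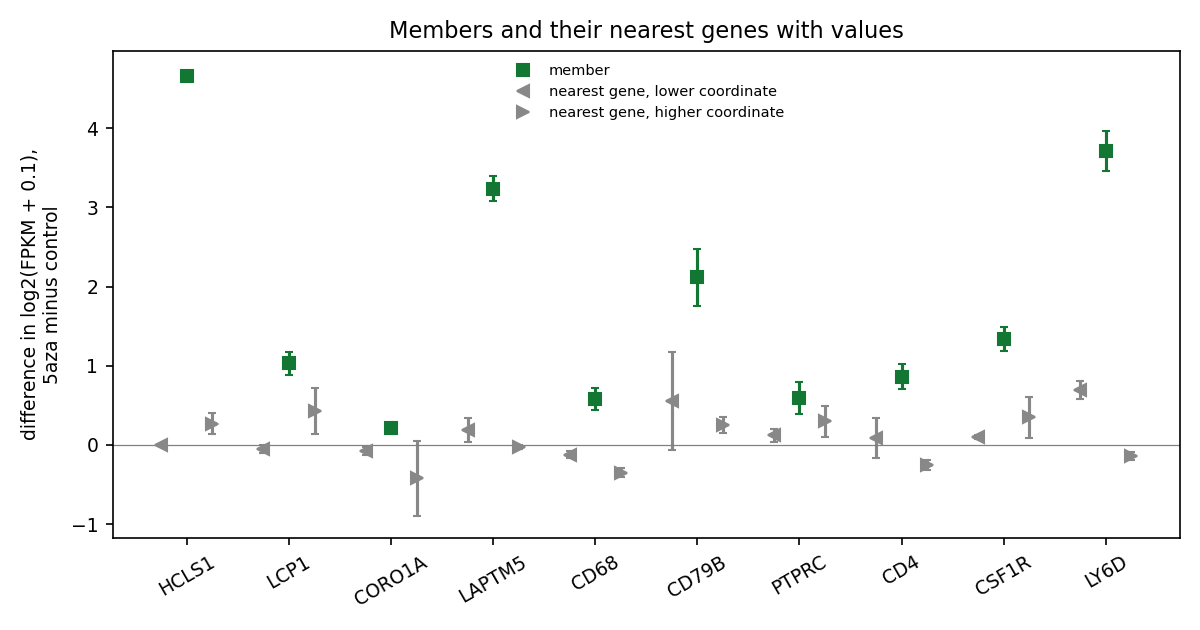
Difference in log2(FPKM + 0.1), 5aza minus control, with its SE, for each member (green squares) and the nearest gene with values on its lower-coordinate and higher-coordinate sides (grey triangles). HCLS1 stands at 4.66 between FBXO40, listed at 0 throughout, and GOLGB1 at 0.27.

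For the 6 members at 0.5 FPKM or more in either group, the protein-coding genes with the most similar values were found by Euclidean distance of log2(FPKM + 0.1) over the 6 libraries. HCLS1 was nearest to TRIM55 (distance 0.65; 0.0749 and 3.42 FPKM in control and 5aza libraries) and TUBA3D (0.66), a testis tubulin gene with near-identical copies. LAPTM5 was nearest to PDLIM4 (0.35; 0.0469 and 1.25 FPKM) and COL6A3 (0.53), and LY6D to FBLN2 (0.48; 0.0415 and 1.47 FPKM) and DPPA2 (0.55). CD79B was nearest to PTAFR (0.64; 0.819 and 2.90 FPKM), the receptor for platelet-activating factor, and TUSC3 (1.15). CORO1A was nearest to OPLAH (0.10) and SRMS (0.13), and CD68 to DLX2 (0.22) and SYTL2 (0.33). Genes with similar values over 2 groups need share nothing else.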

How the data were processed

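The authors deposited 1 table of FPKM values per gene for 6 HCT116 libraries, per the file headers. No source used here names the program behind the values. Named without a role in the submitters' processing notes were GRCh38, Rnor_6.0, DESeq2 1.10.1, HTSeq 0.6.0 and STAR 2.5.1b. Columns were matched to samples through the sample descriptions. The 16726 rows hold 16715 identifiers; for 11 repeated ones, none a member or list gene, the higher-mean row was used. Symbols matched 15421 of 15451 Ensembl identifiers; coordinates are from GENCODE 29 (GRCh38). X, Y and mitochondrial genes were not analysed here. Promoter windows are RefSeq's (GRCh38.p14).

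Values were used as log2(FPKM + 0.1). Genes that reached 0.5 FPKM in 3 or more libraries went into limma 3.58.1 under R 4.3.3 (eBayes with a variance trend, two-sided, Benjamini-Hochberg over all tested genes). The fit was checked only on simulated data that gave every gene the same spread. For single genes SE is the unmoderated one. Members and lists were chosen with earlier results of these data known. Named list genes were up to 3 largest rises and 2 largest falls per list among genes called; the flanking genes and the 2 nearest profiles per member were named too, and other genes were chosen after their values were seen. Alternatives changed the pseudocount, filter, scaling, variance trend, replicate block and libraries. Some genes of the lists are counted but not reported here by name.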

Additional observations from a re-analysis of the deposited data

How the results depend on the processing

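With each library scaled to the same summed FPKM, 2249 genes rose and 779 fell, and 2 list genes fell in place of 5. With no variance trend, 1041 genes and 2 list genes fell. With no filter, 31 list genes rose in place of 14, among 188 tested in place of 77. Over all genes, 1765 then rose in place of 1310, among 16715 tested in place of 12360. Leaving out 1 library gave 940 to 1521 falls over all genes and 2 to 5 among list genes; falls over all genes numbered 1035 without control replicate 1, 940 without control replicate 2 and 987 without 5aza replicate 3. Apart from the numbers of genes tested, the causes were not tested. Every member's difference stayed positive under each alternative run, and leaving out any 1 library moved none by more than the spread between replicates. The pseudocount sets the size for low genes: HCLS1 had 2.11 with a pseudocount of 1 and 6.05 with 0.01, and LY6D 1.26 and 6.24. Under quantile normalization 6 of 10 members moved by more than that spread: HCLS1 to 4.30, LAPTM5 to 2.83, CSF1R to 0.77, LCP1 to 0.54, CD4 to 0.25 and PTPRC to 0.14.

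Replicate numbers are shared by the groups, but nothing says that they pair the libraries, and deviations of same-numbered libraries correlated at only 0.0482, 0.0772 and 0.0677, though each library correlated best with its own number. With the replicate number as a block, 1259 genes rose and 1673 fell, and 16 list genes rose and 5 fell. In the whole window of 300 bases, CG pairs went from 2 to 6 in HCLS1, from 3 to 5 in LAPTM5, from 1 to 2 in CD68 and from 2 to 4 in the second CSF1R window, and PTPRC kept 1. Depth is unknown, so no counting error could be given for values near 0 FPKM.

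Keeping the lower-mean row of repeated identifiers was not run, since none is a member or list gene.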
